A study of Mus musculus with 6 samples.

Results

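The progenitor and neuronal subunits of the BAF chromatin remodelling complex were followed in cultured cerebellar granule neurons (CGNs) treated with an inhibitor of EZH2, the methyltransferase that deposits H3K27me3. The genes were chosen by symbol and comprised the progenitor subunits Actl6a, Ss18, Phf10 and Dpf2, the neuronal subunits Actl6b, Ss18l1, Dpf1, Dpf3 and Smarcd3, and the ATPase Smarca4, which serves in both forms of the complex. They are 10 of the 55341 gene symbols counted, and all 10 were among the 16729 genes with enough reads to be tested. Used here were 6 poly-A RNA-seq libraries of a larger study, 3 from CGNs given DMSO and 3 from CGNs given GSK-126, the EZH2 inhibitor. The CGNs of both groups were grown from granule neuron progenitors purified on a Percoll gradient from early postnatal CD-1 IGS mice, and AraC, which kills dividing cells, was added to all cultures at DIV2 (day 2 in vitro). GSK-126 or DMSO was added once at DIV3 and RNA was taken at DIV5 according to the study's methods, while the labels name DIV3 and cerebellum. No gene was deleted in either group, and each replicate was a culture from pooled cerebella. With a single time point per group, the exchange of subunits over development was not itself measured, and each value below is a level in the culture or a difference between GSK-126 and DMSO.

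BAF complexes use the energy of ATP to move nucleosomes and are assembled from gene families in which a single paralog takes each position. As neural progenitors leave the cell cycle, the actin-related protein Actl6a (BAF53a) gives way to Actl6b (BAF53b), Ss18 gives way to its homolog Ss18l1 (CREST), and the PHD finger proteins Phf10 (BAF45a) and Dpf2 (BAF45d) give way to Dpf1 (BAF45b) and Dpf3 (BAF45c). In developing neurons the repressor REST holds down the microRNAs miR-9 and miR-124 until it is itself lost, and these microRNAs then target the Actl6a transcript. BAF complexes and the EZH2-containing Polycomb complex are known to oppose each other on chromatin.

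A microRNA site in Actl6a and the sequences at or before the starts of Actl6b, Dpf3 and Smarcd3 are shown first, as a description. Whether any regulator acts at them in these cultures was not tested. The mature miR-9-3p, whose seed (bases 2 to 8) is in capitals, is encoded by 3 mouse loci with the same mature sequence in RefSeq (GRCm38.p6), and the Actl6a transcript carries a match to that seed, in capitals in the line after it. The stretch printed lies at chr3:32726625-32726649 on the plus strand (GRCm38), and the first base of the match within it is base 38 after the stop codon.
miR-9-3p: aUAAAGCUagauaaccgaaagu
Actl6a 3′ UTR site: cacctcaacgtctgtAGCTTTAgta
Among the annotated 3′ UTRs of the 10 genes, this 7-base match occurred only in Actl6a, and only in its transcript with an annotated 3′ UTR of 371 bases. The miR-124 host genes are described by their transcript counts alone.

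The second set is the sequence at the start of Actl6b, the neuron-specific counterpart of Actl6a, and before the starts of Dpf3 and Smarcd3, the members with a called difference. Promoter windows of 300 bases, 250 before the start and the rest after it, were matched in RefSeq (GRCm38.p6) for 9 of the 10 genes. The letters searched on both strands were CAGCACC and GGACAG, the left and right parts of the RE1 element bound by REST, CAGCAGG, a motif of the ZIC factors of granule neurons, and the E-boxes CAGCTG and CACGTG. Actl6b was the only member whose window held both RE1 parts, and they lay on the opposite strand with 9 bases between them, in capitals below, at chr5:137553564-137553593.
Actl6b start: ggagCTGTCCggccgcctcGGTGCTGatcc
Of the 32851 windows, 7.14% held the left part, 22.2% the right part, 0.992% both on the same strand, and 0.103% the left part followed by the right within 9 bases. A letter match of this kind is a description and not evidence of binding, and the spacing was taken from the Actl6b window after it had been read. The right part also occurred in the Dpf2 window, CAGCAGG in the Smarcd3 window (and in 10.5% of all windows), CAGCTG in the Phf10 and Smarcd3 windows (16.3% of all), and CACGTG in no member's window (7.15% of all). The 250 bases before the starts of Dpf3 (chr12:83487737-83487986, minus strand) and Smarcd3 (chr5:24602003-24602252, minus strand) follow with CpG dinucleotides in capitals.
Dpf3 upstream: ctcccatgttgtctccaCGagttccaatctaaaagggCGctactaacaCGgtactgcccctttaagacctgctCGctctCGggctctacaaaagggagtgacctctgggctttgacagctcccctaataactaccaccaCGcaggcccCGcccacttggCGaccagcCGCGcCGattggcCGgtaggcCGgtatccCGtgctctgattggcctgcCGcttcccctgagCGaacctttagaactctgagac
Smarcd3 upstream: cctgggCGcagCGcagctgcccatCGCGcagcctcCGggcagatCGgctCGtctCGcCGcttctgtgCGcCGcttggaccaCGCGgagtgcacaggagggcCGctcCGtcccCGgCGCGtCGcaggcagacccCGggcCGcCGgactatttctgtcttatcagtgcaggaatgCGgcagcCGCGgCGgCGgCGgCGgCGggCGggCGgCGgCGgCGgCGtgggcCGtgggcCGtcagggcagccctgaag
They hold 16 and 38 CpG dinucleotides, against a median of 6 over all windows of this length. All 9 matched members lay above that median, from 15 in Actl6b to 51 in Phf10. The Smarcd3 start in RefSeq lies inside the longer gene annotated by GENCODE, so other transcripts of Smarcd3 start further upstream.

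Counts on genes ranged from 7407189 to 13092763 per library, and every member except Dpf1 had at least 195 counts in every library. The 2 groups share replicate numbers. Libraries with the same number deviated together from their group means (Pearson's r across genes of 0.44 to 0.60, against -0.46 to 0.018 for different numbers). Deviations from a group mean balance out, so positive values for same numbers lower those for different numbers, and the contrast is partly built in. Pairing by number was chosen beforehand, with earlier results of these data known. The comparison was made within replicate numbers with edgeR's quasi-likelihood test. A gene was called where its Benjamini-Hochberg adjusted p over all genes tested was under 0.05. This gave 1412 genes called (8.44% of those tested), 561 higher with GSK-126 (3.35%) and 851 lower (5.09%), a split that became 714 higher and 707 lower when total counts replaced the TMM scaling. Without the replicate number in the model, edgeR called 0 genes (0%), and 665 of the 16729 tested had an unadjusted p under 0.05. DESeq2 without it called 20 higher and 1 lower. All calls below therefore rest on the pairing of libraries by number. Replicate 2 of both groups stood apart in the cell markers, with the highest summed CPM (counts scaled to the library total) of 10 granule neuron markers and the lowest of 7 astroglial markers. In bulk RNA of this kind, fewer cells of a type and less RNA per cell cannot be told apart.

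All 10 subunits were expressed, and their levels were compared per length, in CPM per kb of exon. In the DMSO cultures Smarca4 was the most abundant at 37.0 ± 2.69 (SD, n = 3), followed by Smarcd3 at 23.6 ± 3.31 and Dpf3 at 17.9 ± 3.22. Dpf2, Ss18l1, Actl6b and Phf10 followed between 13.2 and 11.6, then Ss18 at 8.37 ± 0.609 and Actl6a at 7.66 ± 0.739, with Dpf1 last at 1.52 ± 0.345. Smarca4 was separated from Smarcd3, Phf10 from Ss18, and Actl6a from Dpf1, while every other pair of neighbours had overlapping ranges among the 3 DMSO libraries. Ranks of the mean over all 6 libraries were also taken with the length of the longest transcript in place of all exons. Smarca4, Smarcd3 and Dpf1 kept the ranks 1, 2 and 10. Ss18 moved from rank 8 to rank 5, Ss18l1 from 5 to 9, Phf10 from 6 to 8 and Actl6a from 9 to 7. Dpf2, Dpf3 and Actl6b moved to neighbouring ranks. The order of Phf10 above Ss18 therefore depended on the length used.

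Among the neuronal subunits, Dpf3 and Smarcd3 were lower in the GSK-126 cultures, Actl6b was lower in every pair but was not called, and Ss18l1 and Dpf1 had no called difference. No neuronal subunit was higher. Of the 10 members 2 were called lower, where 5.09% of all genes tested were, and 0 were called higher, where 3.35% were.

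Dpf3 reads acetylated and methylated histone tails through its paired PHD fingers. It lies at chr12:83213745-83487716 on the minus strand (GRCm38), and its exons overlap those of no other gene. Its level was 63.7, 90.5 and 73.3 CPM in DMSO replicates 1, 2 and 3, and 39.9, 64.9 and 54.4 CPM in the GSK-126 replicates of the same numbers. Each GSK-126 library was below the DMSO library of its number, and the groups overlapped only in that GSK-126 replicate 2 exceeded DMSO replicate 1. Dpf3 fell by 0.53 on the log2 scale (SE 0.09, 95% interval -0.72 to -0.33), a decrease of 30.6%, with an edgeR Benjamini-Hochberg adjusted p of 0.00096. With any replicate number left out the adjusted p remained between 0.0003 and 0.018. Without the block the edgeR p of Dpf3 was 0.038 unadjusted and 0.953 adjusted. Dpf3 was then the only member with an unadjusted p under 0.05, where 665 of the 16729 genes tested had such a p.

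Smarcd3 encodes BAF60c, a subunit through which transcription factors contact the complex, and lies at chr5:24590818-24624411 on the minus strand. Its level was 114, 140 and 108 CPM in the DMSO cultures and 94.4, 121 and 80.0 CPM in the GSK-126 cultures. All 3 pairs were lower with GSK-126, while the ranges of the groups overlapped because replicate 2 was the highest library of each group. Smarcd3 fell by 0.30 on the log2 scale (SE 0.08), or 19.0%, with an edgeR adjusted p of 0.022. This call was lost without replicate 1 (adjusted p 0.109), without replicate 3 (0.192) and with DESeq2 and the same block (0.0548). Its exons share 2466 bases with genes on the opposite strand, Chpf2 and Mir671, and Chpf2 had a log2 difference of -0.11 (adjusted p 0.474). The strand setting of the counting is not given in the sources used here.

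Actl6b is needed for activity-dependent dendrite growth and lies at chr5:137553517-137569582 on the plus strand, and its exons overlap those of no other gene. It was at 47.3, 72.3 and 42.8 CPM in DMSO and at 37.4, 60.1 and 35.7 CPM with GSK-126. The GSK-126 library was the lower of each pair, but replicate 2 of both groups lay above all other libraries, so that the spread between numbers was larger than the difference within them. The log2 difference was -0.29 (SE 0.10, 95% interval -0.50 to -0.08), with an unadjusted p of 0.0087 and an edgeR adjusted p of 0.0814.

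Ss18l1, a calcium-regulated activator, had 59.3, 59.4 and 52.0 CPM in DMSO and 46.8, 53.7 and 53.8 CPM with GSK-126. Replicates 1 and 2 were lower with the inhibitor and replicate 3 was not, and its log2 difference of -0.15 (SE 0.10) had an edgeR adjusted p of 0.439. Dpf1 was the rarest member, with 63 to 101 counts per library, and had 10.3, 6.81 and 7.39 CPM in DMSO and 7.66, 6.79 and 9.35 CPM with GSK-126. Its pairs went in different directions, and its 95% interval of -0.50 to 0.42 on the log2 scale leaves room for differences as large as that of Actl6b.

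**Figure D1:**
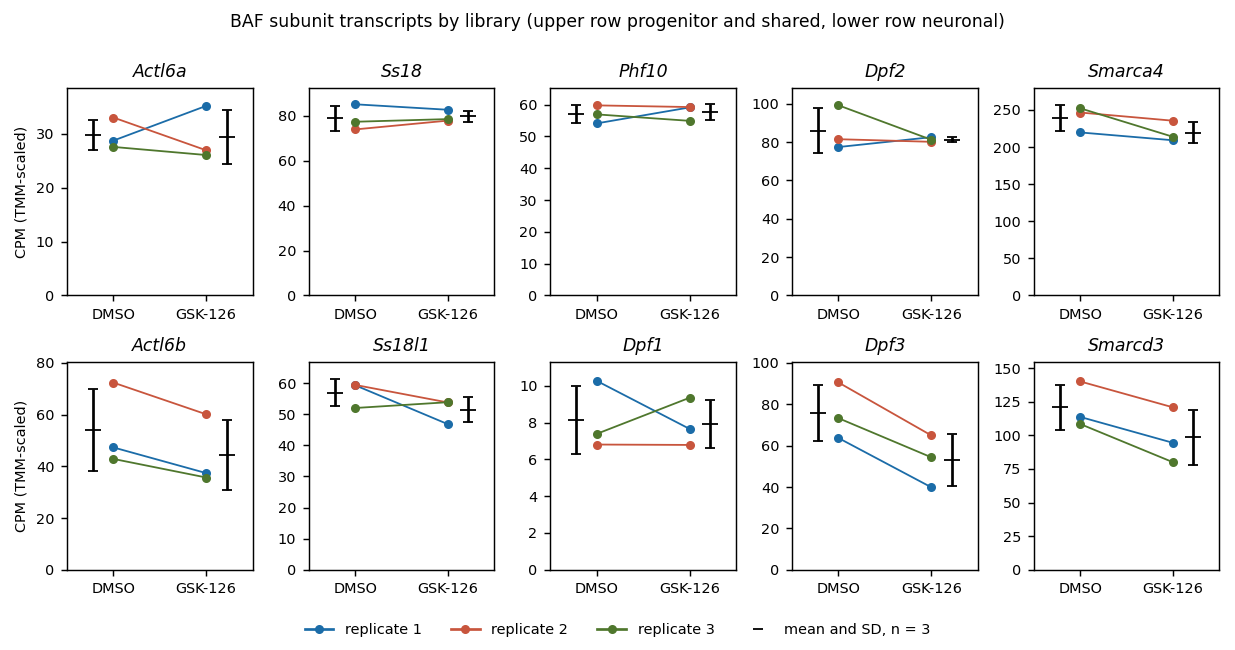
Level of each of the 10 subunits in CPM scaled by TMM (y axis, from 0) in DMSO and GSK-126 cultures (x axis), with a line joining the libraries of each replicate number and the mean ± SD of 3 libraries beside the points. All 3 lines descend for Actl6b, Dpf3, Smarcd3 and Smarca4, and cross or stay level for the progenitor subunits Actl6a, Ss18, Phf10 and Dpf2.

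None of the 4 progenitor subunits was called in either direction, and their summed level was 245 to 261 CPM in DMSO and 241 to 260 CPM with GSK-126. Actl6a had 28.7, 33.0 and 27.6 CPM in DMSO and 35.2, 26.9 and 26.0 CPM with GSK-126. It was higher in replicate 1 and lower in replicates 2 and 3, and its log2 difference of -0.02 (SE 0.13, adjusted p 0.94 by edgeR) had an interval of -0.30 to 0.25 and turned to 0.01 with upper-quartile or total-count scaling. Its annotated exons share 452 bases with Mrpl47 on the opposite strand. Mrpl47 was higher with GSK-126 in all 3 pairs without overlap of the groups (log2 difference 0.24, edgeR adjusted p 0.217). Whether its reads enter the Actl6a counts is not known.

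Ss18, an activator that binds the ATPase, had 85.1, 73.9 and 77.4 CPM in DMSO and 82.7, 77.9 and 78.5 CPM with GSK-126. All 3 GSK-126 values lay within the DMSO range, and the interval of the log2 difference was -0.16 to 0.20. Phf10, the progenitor member of the BAF45 family, had 54.1, 59.8 and 56.9 CPM against 59.1, 59.2 and 54.9 CPM, with an interval of -0.18 to 0.22. Dpf2, the widely expressed BAF45 member, had 77.4, 81.5 and 99.2 CPM against 82.5, 80.1 and 81.2 CPM. DMSO replicate 3 was its single high library, and the interval was -0.26 to 0.12.

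Smarca4 (BRG1), the ATPase, had 220, 247 and 252 CPM in DMSO and 209, 236 and 214 CPM with GSK-126. All 3 pairs were lower (2 of 3 when total counts replaced TMM), with a log2 difference of -0.12 (SE 0.07) and an edgeR adjusted p of 0.344. Over the 10 members the median log2 difference was -0.10, against -0.0056 over all genes tested, with -0.0032 for the 4 progenitor subunits and -0.29 for the 5 neuronal subunits. All 3 pairs went in the same direction for 4 members (Actl6b, Dpf3, Smarcd3 and Smarca4), where 42.2% of all genes did so, and no member had groups that did not overlap, where 9.44% of all genes did.

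The balance between paralogs was then measured within each library, which needs no scaling between libraries. Dpf3 reads per kb were 1.37, 1.76 and 1.50 times those of Phf10 in DMSO and 0.784, 1.28 and 1.15 times with GSK-126. Every GSK-126 library lay below every DMSO library, and the log2 ratio differed by -0.55 (SD 0.22 over 3 pairs). For Smarcd3 over Smarcd1 (BAF60a, the widely expressed member of that family), the ratios were 1.18, 1.45 and 1.16 in DMSO and 0.917, 1.06 and 0.871 with GSK-126, again without overlap. The log2 difference of -0.41 varied little among pairs (SD 0.044), from -0.45 to -0.36. For both ratios the two-sided exact permutation p was 0.1 with libraries exchanged between groups and 0.25 with signs flipped within pairs, which are the smallest values that 3 against 3 libraries and 3 pairs allow. Adjusted over the 5 ratios compared, the exact p for both was 0.25 with exchange and 0.625 with sign flips within pairs. The 95% interval of the mean log2 difference over the 3 pairs was -1.11 to 0.0083 for Dpf3 over Phf10, which includes 0. For Smarcd3 over Smarcd1 it was -0.52 to -0.30. The exons of Smarcd3 share 2466 bases with genes on the opposite strand, those of Phf10 470 bases and those of Smarcd1 511 bases. With the strand setting of the counting unknown, reads of those genes may enter these ratios.

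The Actl6b to Actl6a ratio did not differ beyond its spread. It was 1.50, 2.00 and 1.42 in DMSO and 0.968, 2.03 and 1.25 with GSK-126, so that replicate 1 carried most of the mean log2 difference of -0.26 (SD 0.34), which was -0.08 without replicate 1. The Ss18l1 to Ss18 ratio differed by -0.16 (SD 0.17), with replicate 3 in the other direction. The Dpf1 to Phf10 ratio differed by -0.05 (SD 0.47) and turned to 0.20 without replicate 1. The two-sided exact permutation p with exchange for these 3 ratios was 0.5, 0.4 and 0.9.

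**Figure D2:**
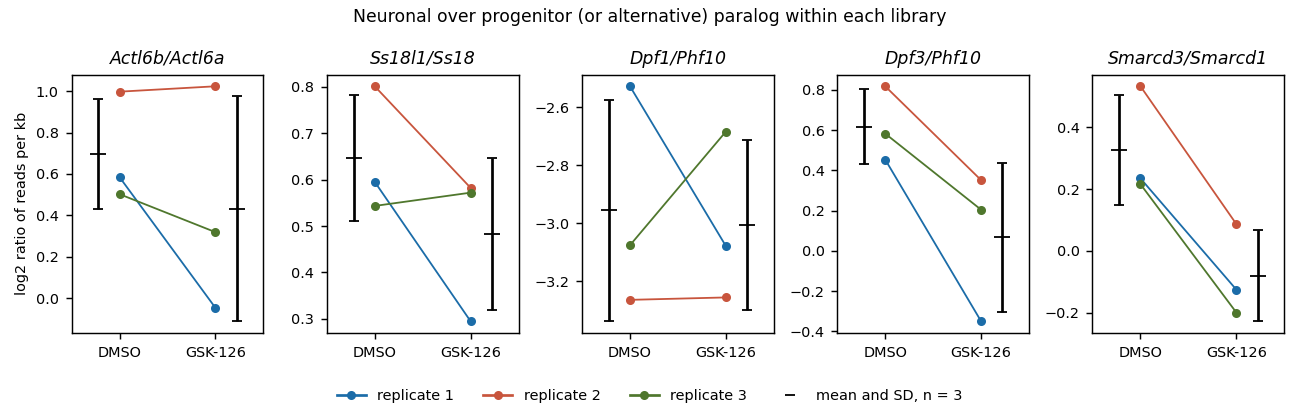
Log2 ratio of reads per kb between a neuronal subunit and its progenitor or alternative paralog within each library (y axis, a separate scale for each ratio) for DMSO and GSK-126 (x axis), with lines joining replicate numbers and mean ± SD of 3 libraries. The groups are separate for Dpf3 over Phf10 and Smarcd3 over Smarcd1, and overlap for the other 3 ratios.

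As shares of each family, Dpf3 made up 37.8%, 45.2% and 38.1% of BAF45 reads per kb in DMSO and 26.5%, 37.5% and 33.6% with GSK-126, and the share of Phf10 was larger in all 3 pairs, going from a mean of 26.2% ± 1.19 to 30.8% ± 2.61 (SD, n = 3). Both shares had separate groups, although those of Dpf3 overlapped when the longest transcript was used as length. The level of Phf10 itself had no called difference. Smarcd3 made up 41.8% ± 3.23 of BAF60 in DMSO and 36.0% ± 3.17 with GSK-126, and Smarcd1 33.2% ± 1.57 and 37.9% ± 0.673, with separate groups under both lengths. Actl6b made up 61.7% ± 4.28 and 57.2% ± 9.05 of its family and Ss18l1 61.0% ± 2.23 and 58.3% ± 2.76, with overlapping groups. The larger member of the Ss18 family depended on the length used, since Ss18l1 held 40.8% in DMSO with the longest transcripts.

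**Figure D3:**
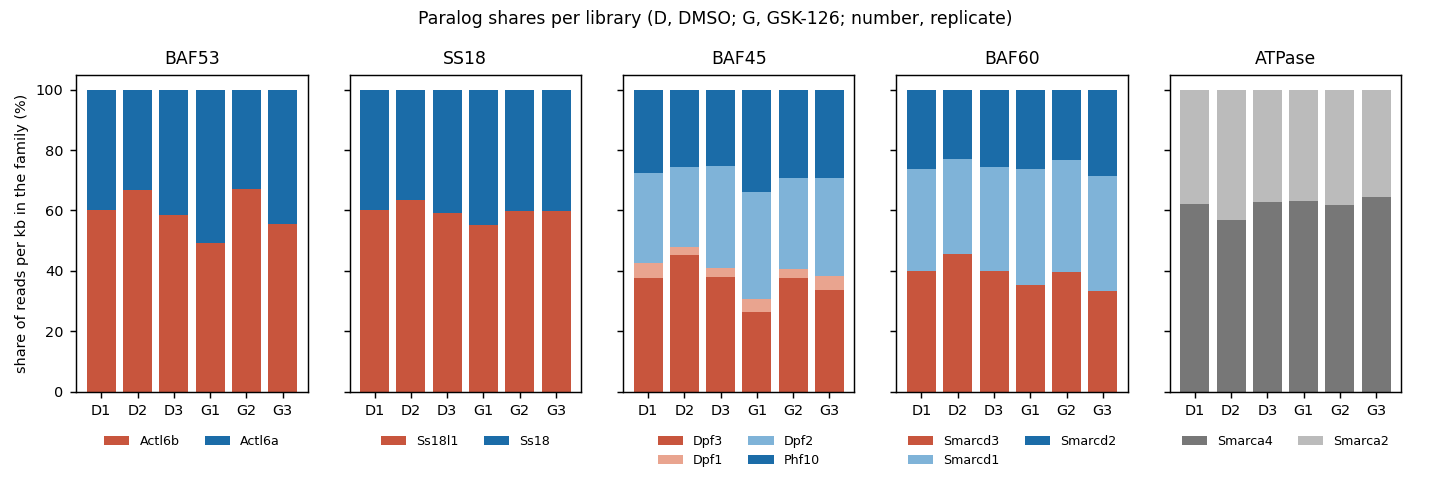
Share of each paralog in the reads per kb of its family (stacked bars to 100%) in each of the 6 libraries (D1 to D3, DMSO; G1 to G3, GSK-126). The Dpf3 share of BAF45 was 37.8% to 45.2% in DMSO and 26.5% to 37.5% with GSK-126, while Actl6b and Ss18l1 overlapped between groups.

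The rest of the SWI/SNF subunits were read in the same fit. Of 21 listed genes 20 were tested (Bcl11b was too low). Of these, 2 were called lower and 0 higher, where 5.09% and 3.35% of all genes tested were. Their median log2 difference was -0.05, against -0.0056 over all genes tested. Arid1a, the large DNA-binding subunit that defines canonical BAF, had 161, 236 and 229 CPM in DMSO and 148, 178 and 165 CPM with GSK-126. It fell by 0.33 on the log2 scale (SE 0.08, edgeR adjusted p 0.0111). Smarca2 (BRM), the alternative ATPase, had 295, 411 and 330 CPM against 270, 320 and 259 CPM and fell by 0.28 (SE 0.07, edgeR adjusted p 0.0196). Both were lower in all 3 pairs with overlapping groups, and both calls were lost without replicate 2 (adjusted p 0.0697 and 0.0938) and without replicate 3 (0.108 and 0.126). Smarca2 and Smarca4 were both the lower of each pair with GSK-126, and the share of Smarca4 in the 2 ATPases was 60.6% ± 3.17 in DMSO and 63.2% ± 1.33 with GSK-126. With the longest transcripts as length it was 39.4% and 42.0%, so that which ATPase was the larger depended on the length used. Smarcd1 had a log2 difference of 0.10 (SE 0.09, edgeR adjusted p 0.553).

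**Figure D4:**
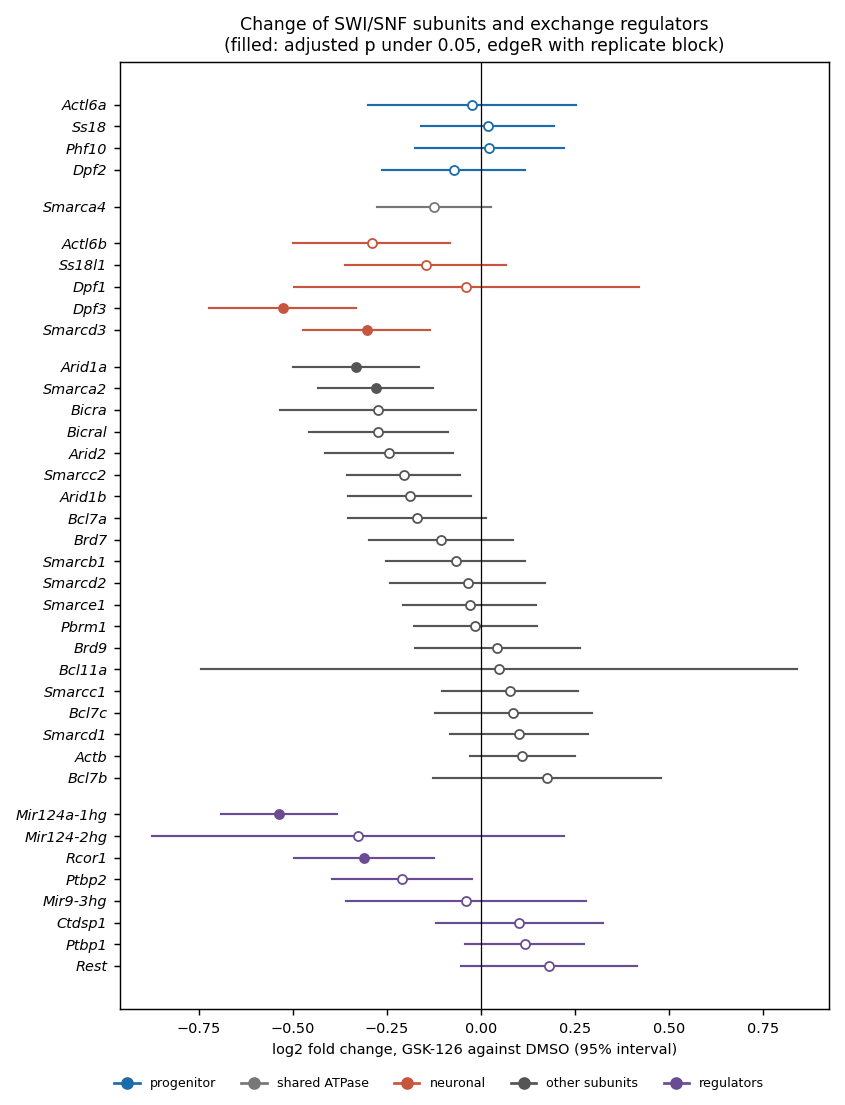
Log2 difference between GSK-126 and DMSO (x axis) with 95% intervals from the edgeR fit with the replicate block, for the 10 members by role, 20 other SWI/SNF subunits and 8 regulators of the exchange. Filled points mark an adjusted p under 0.05, which are Dpf3, Smarcd3, Arid1a, Smarca2, Mir124a-1hg and Rcor1, all to the left of 0.

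Of the 8 regulators of the exchange, all tested, 2 were called lower and 0 higher, where 5.09% and 3.35% of all genes tested were. The host transcript of miR-124, Mir124a-1hg, had 160, 327 and 174 CPM in DMSO and 107, 221 and 126 CPM with GSK-126. It was lower in all 3 pairs and fell by 0.54 (SE 0.07, edgeR adjusted p 7.28e-05), which held with any replicate number left out. The count is of the host transcript and does not measure the mature microRNA.

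Rcor1 (CoREST), a corepressor recruited by REST, had 76.7, 94.7 and 80.2 CPM in DMSO and 63.9, 68.4 and 70.0 CPM with GSK-126, without overlap. It fell by 0.31 (SE 0.09, edgeR adjusted p 0.0345), a call lost without replicate 1 (0.128), without replicate 2 (0.22), with upper-quartile scaling (0.0615) and with total counts (0.0575). Rest itself had a log2 difference of 0.18 (SE 0.11, adjusted p 0.379 by edgeR) and was the higher library of each pair with GSK-126, from 34.5 ± 8.32 to 38.8 ± 7.39 CPM (SD, n = 3). The log2 difference was 0.10 for Ctdsp1, a small phosphatase that works with REST, 0.12 for Ptbp1 and -0.21 for Ptbp2, the splicing repressors exchanged during neuronal differentiation, -0.04 for Mir9-3hg and -0.33 for Mir124-2hg. None of these 5 was called with all libraries. Without replicate 3, Ptbp2 was called lower (log2 difference -0.34, edgeR adjusted p 0.0312), and the log2 difference of Mir124-2hg ran from -0.04 without replicate 2 to -0.64 without replicate 3, neither of them called.

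Markers of the cells in culture moved beside these results. The 10 granule neuron markers summed to 3617 to 5680 CPM in DMSO and 2982 to 4602 CPM with GSK-126, lower in each of the 3 pairs. Of them 5 were called lower and 1 (Tubb3) higher, where 5.09% and 3.35% of all genes tested were. The 8 late granule neuron genes, of which Slc17a7 and Gabra6 are also in the first list, were all called lower, where 5.09% of all genes tested were. Their sum went from 1059 to 2707 CPM in DMSO to 581 to 1306 CPM with GSK-126. This list was chosen with earlier results of these data known. The study had named some of its genes as reduced when GSK-126 was added earlier than here. For addition at DIV3 it reported a reduction of the genes that lose promoter H3K27me3, as a group. The count of calls is therefore a description and not independent support. Replicate 2 of each group had the highest sum in both lists, as it had for Actl6b, Dpf3 and Smarcd3.

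Astroglial markers were abundant in every library. Their sum over 7 genes was 2584 to 8005 CPM in DMSO and 2502 to 8291 CPM with GSK-126, with 1 called higher, and replicate 1 was the highest of each group. The calls in this and the following lists stand beside 3.35% higher and 5.09% lower over all genes tested. The sums of vascular and fibroblast markers were 2840 to 4090 CPM and 3528 to 4368 CPM (7 of 8 tested, 1 higher), of dividing cells and progenitors 345 to 492 and 358 to 558 CPM (8 of 10 tested, 1 higher), of microglia 149 to 320 and 205 to 373 CPM (1 of 6 higher), of the oligodendrocyte lineage 433 to 747 and 502 to 762 CPM (1 of 8 higher), and of GABAergic neurons 208 to 243 and 162 to 197 CPM (3 of 7 lower). In the list of dividing cells and progenitors, Atoh1 and Gli1 averaged under 1 CPM in both groups. Group means of the 8 tested genes of that list ran from 25.2 CPM in DMSO to 102 CPM with GSK-126. The part of these markers in the differences of the BAF subunits was not tested. Expressed within a library, the Dpf3 to Phf10 and Smarcd3 to Smarcd1 ratios compare 2 subunits of the same RNA, but the subunits may be carried by different cells.

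**Figure D5:**
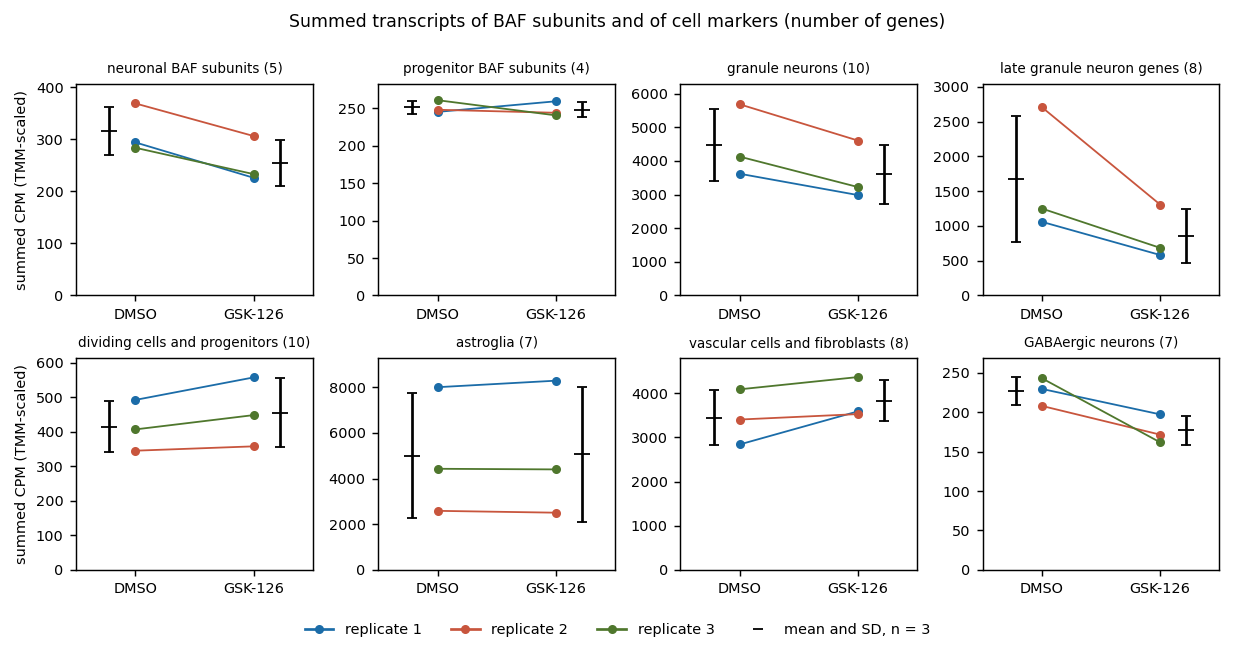
Summed CPM (y axis, from 0) of the neuronal and progenitor BAF subunits and of 6 marker lists in DMSO and GSK-126 cultures (x axis), with lines joining replicate numbers and mean ± SD of 3 libraries; the number of genes is in each title. Neuronal subunits, granule neuron markers and late granule neuron genes were lower in all 3 pairs and highest in replicate 2, and astroglial markers were highest in replicate 1.

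The genes with the pattern most like that of Actl6b over the 6 libraries, among 12151 genes with a mean log2 CPM over 3, were Kcnab1 (Pearson's r 0.998), Gm26693 (0.996) and Gm9821 (0.996). For Actl6a they were Slco3a1 (0.984), Wnt7b (0.959) and Tctn2 (0.954). These are descriptions over 6 libraries that share their replicate pairs.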

How the data were processed

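Raw counts per gene were deposited by the authors for each library, made by trimming with Trimmomatic 0.38, alignment to GRCm38.p4 with STAR 2.7.2b and HTSeq counting over exons. Lines that name no gene (58.7% to 60.7% of the reads listed, 45.3% to 46.6% being reads outside annotated features) were left out. Groups and replicate numbers came from the sample titles. Counts were tested in R 4.3.3 with edgeR 4.0.16 (TMM, filterByExpr, quasi-likelihood test, replicate number as a block), and DESeq2 1.42.0 was an alternative. The biological coefficient of variation was 9.74% with the block and 24.0% without it. The pairing by number was chosen beforehand, and the labels do not say what a number marks. Same-numbered libraries correlated in the counts (0.52, 0.60 and 0.44). With the block, edgeR p-values measure the spread of the GSK-126 to DMSO differences among replicate numbers. Without it they measure the spread between cultures. CPM was scaled by TMM. Lengths, coordinates and overlaps came from GENCODE M21 (GRCm38). The scripts were tested on simulated data.

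The members, gene lists and block were chosen with earlier results of these data known. The genes named are the 10 members, Smarcd1, Smarca2, other SWI/SNF subunits called, the tested regulators, and for Actl6a and Actl6b the 3 genes of highest Pearson correlation; Tubb3, Slc17a7, Gabra6, Atoh1, Gli1 and the overlapping genes were named after their values were seen. Marker lists were fixed by name. Alternatives covered the block, DESeq2, 3 scalings, 2 filters, the threshold, left-out replicates, a pseudocount of 1 and the length.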

Additional observations from a re-analysis of the deposited data

How the results depend on the processing

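Dpf3 and Smarcd3 were both called lower with RLE, upper-quartile or total-count scaling and with either filter. Called lower were 851 genes, 2 members, 2 other subunits, 2 regulators and 8 late granule neuron genes, and 561 genes were called higher. Without the replicate block every one of these counts was 0, also with each single library left out, and with DESeq2 without the block they were 1, 0, 0, 0 and 0, with 20 higher. With DESeq2 and the block 369 genes were called higher, and 1 member and 1 regulator lower. Upper-quartile factors and total counts each left 1 regulator, and called 727 and 714 genes higher against 698 and 707 lower. At an adjusted p under 0.01, 242 genes were higher and 474 lower, with 1 member, 0 other subunits and 1 regulator. Leaving out replicates 1, 2 and 3 in turn gave 337 to 558 genes higher, 496 to 719 lower, 1 to 2 members, 0 to 2 other subunits and 1 to 3 regulators (Ptbp2 being added without replicate 3). The mean log2 difference of the Dpf1 to Phf10 ratio then ranged from -0.27 to 0.20.

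None of the log2 differences that turned sign was called, before or after the turn. Actl6a became 0.0098 with upper-quartile factors and 0.010 with total counts, 0.12 and 0.0045 with the block and without replicates 2 and 3, and 0.069, 0.062 and 0.064 with no block and without DMSO replicate 2, GSK-126 replicate 2 and GSK-126 replicate 3. With the block and without replicate 1, Phf10 became -0.017, Dpf1 0.19 and Mir9-3hg 0.11. Without replicate 2, Ss18 became -0.0079 and Ctdsp1 -0.036, and without replicate 3 Dpf2 became 0.036. With no block, Dpf1 became 0.17 and Mir9-3hg 0.41 without DMSO replicate 1, Ss18 -0.024, Rest -0.015, Ctdsp1 -0.17 and Mir124-2hg 0.019 without DMSO replicate 2, Dpf2 0.035 without DMSO replicate 3, Ctdsp1 -0.14 without GSK-126 replicate 1, and Dpf1 0.076 and Mir9-3hg 0.14 without GSK-126 replicate 2. The other ends of these ranges with the block were -0.18 for Actl6a and 0.063 for Ss18 without replicate 1, and 0.059 for Phf10, -0.22 for Dpf1 and -0.15 for Mir9-3hg without replicate 3. The causes were not tested. Alternatives for Arid1a, the regulators and the late granule neuron genes were added after the data were seen. With 63 counts in a library Dpf1 is the member whose depth limits it most.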
